A study of Rattus norvegicus with 18 samples.

Results

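The genes described here were the 262 zinc finger genes whose symbols begin with Zfp or Zbtb and a number, out of 13136 gene symbols measured on rat gene arrays in INS1E cells. INS1E is a clonal line of beta-like cells that secretes insulin and was established from a rat tumour. The members were taken by symbol alone from the deposited table, 1 probe set per symbol (that with the highest mean), and Zfp36, Zfp36l1 and Zfp36l2 were left out. They comprised 226 Zfp and 36 Zbtb genes. The symbol also took in Zfp36l3, an RNA-binding protein of the tristetraprolin family in rodents.

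The samples formed 6 groups of 3 arrays each. Stimulated cells had received 22 mM glucose for 60 min after 72 h with 10 nM calcitriol, after 72 h with 10 nM calcidiol, or after 72 h without vitamin D. Their unstimulated counterparts had the same 3 pretreatments and no glucose. All cells were grown at 11 mM glucose and spent 60 min in a glucose-free buffer before that step, so neither state equals the culture condition. Calcidiol is the circulating form of vitamin D, and calcitriol, its hormonally active derivative, has an additional hydroxyl on its carbon 1. No label says whether a group's 3 arrays stem from separate cultures, so the spread behind each p-value may be technical alone.

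Most Zfp and Zbtb proteins bind DNA through arrays of C2H2 zinc fingers. Many Zfp proteins carry a KRAB domain, which recruits Trim28 and, through it, the histone methyltransferase Setdb1 to silence chromatin. Zbtb proteins carry a BTB domain, through which they pair and bind corepressors such as Ncor1 and Bcor. Several act in lineage choice or in metabolism. In the mouse, Zbtb20 is needed for normal insulin secretion by beta cells.

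Of the 262 members, 198 passed a filter that left out the lowest 25% of genes by mean signal (a mean log2 signal of 6.38 or below), 169 Zfp and 29 Zbtb genes. Mean log2 signals ran from 4.24 for Zfp748 to 11.02 for Zfp91, a ubiquitin ligase, and 10.91 for Zfp207, which binds the checkpoint protein Bub3. Signals of different probe sets are not levels that can be ranked between genes. Markers of beta cells fitted the label of the line, with Ins1 between 12.78 and 12.98 and Slc2a2 between 12.03 and 12.29 on all 18 arrays. Gcg, the glucagon gene, was also high, between 10.20 and 12.16, while Sst, Ppy, Ghrl, Col3a1 and Cd68 lay below the filter.

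The arrays numbered 3 included 3 that went against their labels for Txnip, a gene strongly induced by glucose. Its log2 signal was 10.33 on array 3 of glucose alone and 10.23 on array 3 of calcidiol with glucose, where the 7 other stimulated arrays lay between 12.18 and 12.33. It was 12.11 on array 3 of calcitriol without glucose, where the 8 other unstimulated arrays lay between 9.88 and 10.53. The main glucose results are therefore given for the 18 arrays as labelled and for the 12 arrays numbered 1 and 2. In bulk RNA, fewer cells of a type and less RNA per cell cannot be told apart.

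Zinc finger genes were mostly lower after glucose. Averaged over the 3 pretreatments (9 stimulated against 9 unstimulated arrays), 21 of the 198 members passed limma's test at an adjusted p of 0.05, which is 10.6%, where 3.37% of all 9852 genes tested did. Of these members 19 fell and 2 rose. Lower calls made up 9.6% of members against 1.97% of all genes, and higher calls 1.01% against 1.4%. The median log2 difference, stimulated minus unstimulated, was -0.083 over the members and -0.030 over all genes. It was negative in 164 members (82.8%), against 67.0% of all genes. Among Zfp genes 17 of 169 were called, 15 of them lower, and among Zbtb genes 4 of 29, all lower. This split follows the symbols of the deposited table, some of them older ones, and was not checked against the proteins' domains.

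**Figure D1:**
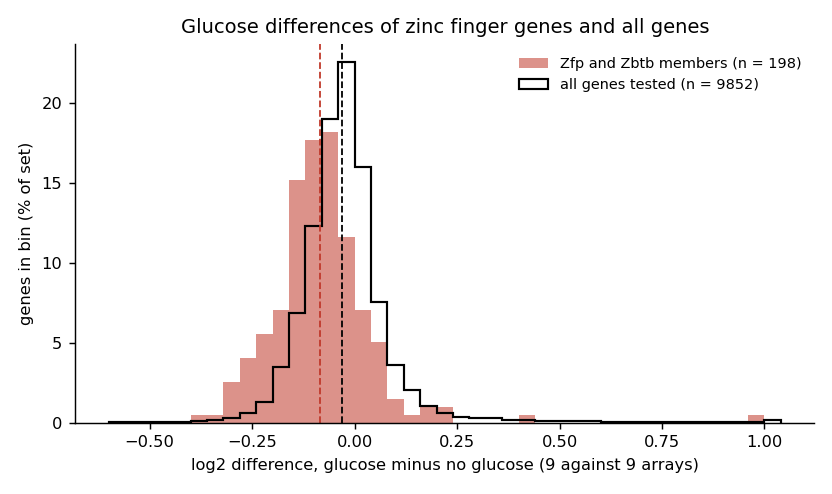
Distribution of the log2 difference, stimulated minus unstimulated arrays averaged over pretreatments, for the 198 members (filled) and all 9852 genes tested (outline), each as a percentage of its own set; dashed lines mark the medians, -0.083 and -0.030, and genes beyond the axis are counted in the end bins. The members' distribution lies to the left of that of all genes, and Zfp189 stands alone near 0.96.

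These counts depended on the arrays. The 12 arrays numbered 1 and 2 gave 53 called members, 46 lower and 7 higher, where 9.94% of all genes were called. The block on array number gave 47 over the 18 arrays, 43 lower and 4 higher, where 9.55% of all genes were called, and 73 over the 12 arrays, where 15.9% were. All 21 members were among the calls of each of those fits. Those fits reuse arrays of the main fit and called more of all genes than it did, so the overlap is not independent evidence. Leaving out any single array numbered 1 or 2 left between 2 and 9 calls, 1.01% to 4.55% of members, where 0.305% to 1.59% of all genes were called. Without array 3 of calcidiol with glucose there were 40 calls (20.2%, against 8.18% of all genes), and without array 3 of the control there were 7 (3.54%, against 1.18%). Zbtb2 and Zfp952 were called in all 18 fits that left out 1 array, and each of the 19 others was lost in some.

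The members' displacement was seen in each set of same-numbered arrays, though it was smaller in the third. The median member difference was -0.128 among arrays numbered 1, -0.098 among those numbered 2 and -0.021 among those numbered 3. The corresponding medians of all genes were -0.044, -0.033 and -0.011. In single arrays, each member's deviation from its own mean was summarised as the members' median minus that of all genes. This lay between -0.054 and -0.026 on 7 stimulated arrays, and was -0.006 and 0.024 on the stimulated arrays 3 of glucose alone and calcidiol with glucose. It lay between 0.013 and 0.037 on 8 unstimulated arrays and was -0.016 on array 3 of calcitriol. The 3 arrays that go against their labels for Txnip were thus also those nearest to the opposite state here.

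**Figure D2:**
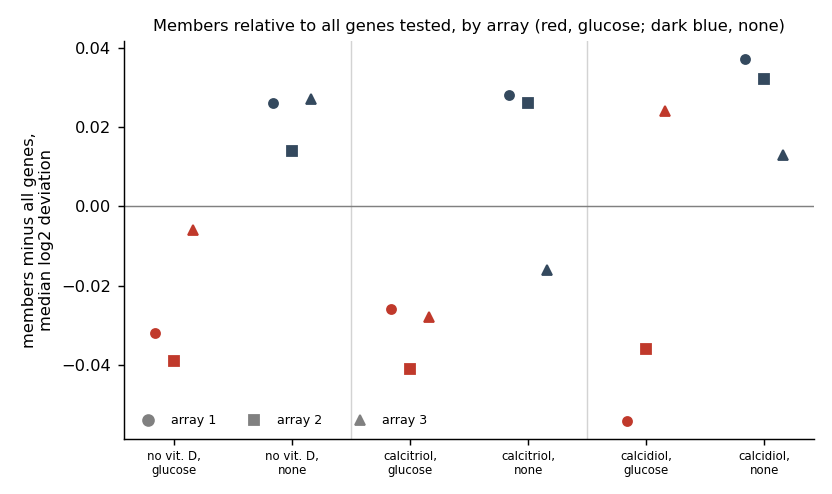
Median log2 deviation of the 198 members from their own means, minus the same for all 9852 genes, on each of the 18 arrays (red stimulated, dark blue unstimulated; marker shape gives the array number). Stimulated arrays lie below 0 except array 3 of calcidiol with glucose (0.024), and unstimulated arrays lie above 0 except array 3 of calcitriol (-0.016).

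The called Zbtb genes were Zbtb2, Zbtb45, Zbtb8a and Zbtb43. Zbtb2 represses genes of the ARF, p53 and p21 pathway in human cells and binds unmethylated CpG islands in mouse embryonic stem cells. Without vitamin D its log2 signal was 7.94, 7.93 and 8.16 in stimulated cells against 8.28, 8.30 and 8.29 in unstimulated cells. After calcitriol it was 7.85, 7.80 and 7.89 with glucose and 8.33, 8.20 and 8.17 without. After calcidiol it was 7.91, 7.98 and 8.09 with glucose and 8.28, 8.23 and 8.09 without. The groups did not overlap without vitamin D or after calcitriol, and after calcidiol the arrays numbered 3 were level. Zbtb2 fell by 0.29 on the log2 scale (SE 0.042, adjusted p = 0.00938), and by 0.37 over the 12 arrays (adjusted p = 0.000332).

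Zbtb45, a regulator of glial differentiation in the mouse, ranged from 7.61 through a median of 7.87 to 8.17 on stimulated arrays, and from 7.87 through 8.26 to 8.33 on unstimulated arrays. The 2 states overlapped at array 3 of calcitriol (7.87) and array 3 of calcidiol with glucose (8.17). It fell by 0.36 (SE 0.076, adjusted p = 0.0277). Zbtb43 fell by 0.22 (adjusted p = 0.0413), and by 0.30 over the 12 arrays. Zbtb8a fell by 0.20 (adjusted p = 0.0399), and by 0.24 over the 12 arrays. A second probe set of Zbtb8a, of lower mean signal (6.08), gave 0.002. Zbtb11, which supports expression of respiratory chain genes in human cells, gave -0.25 at an adjusted p of 0.0522, and 0.0296 with the block.

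Among the Zfp genes 15 were called lower. For Zfp952 the log2 signals without vitamin D were 6.87, 6.78 and 6.97 in stimulated cells against 7.45, 7.19 and 7.31 in unstimulated cells. After calcitriol they were 6.99, 6.86 and 6.83 with glucose and 7.36, 7.36 and 7.03 without. After calcidiol they were 6.73, 6.97 and 7.13 with glucose and 7.34, 7.32 and 7.16 without. No pretreatment showed an overlap, although array 3 of calcitriol (7.03) fell below array 3 of calcidiol with glucose (7.13). Zfp952 fell by 0.38 (SE 0.063, adjusted p = 0.0135), and by 0.47 over the 12 arrays.

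Zfp462, which maintains heterochromatin in mouse embryonic stem cells, was between 9.17 and 9.46 (median 9.25) on stimulated arrays and between 9.21 and 9.76 (median 9.63) on unstimulated ones. It fell by 0.31 (SE 0.069, adjusted p = 0.0316), and it was lower in the stimulated array of all 9 same-numbered pairs. Zfp148, known as ZBP-89, binds GC-rich promoters. Its stimulated arrays were closely grouped, from 9.34 to 9.41 with a median of 9.39, against 9.40 to 9.60 with a median of 9.51 on unstimulated arrays. The difference of -0.13 (SE 0.033, adjusted p = 0.0463) was the smallest among the 21 members, and it was -0.17 over the 12 arrays.

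Zfp592, a partner of the chromatin reader ZMYND8 in human cells, fell by 0.21 (SE 0.044, adjusted p = 0.0264). Zfp668, linked to DNA repair and p53 in human cells, fell by 0.24 (SE 0.057, adjusted p = 0.0377). The other lower genes were Zfp37, Zfp768, Zfp105, Zfp788, Zfp280b, Zfp629, Zfp777, Zfp27, Zfp212 and Zfp710, with falls between 0.18 for Zfp710 and 0.30 for Zfp280b. Zfp148, Zfp212, Zfp710, Zfp777 and Zfp788 lost their call after quantile normalization or median centring, which left 17 members called, 14 lower and 3 higher. Among all genes the quantile values gave 132 lower and 200 higher calls, where the deposited values gave 194 and 138.

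**Figure D3:**
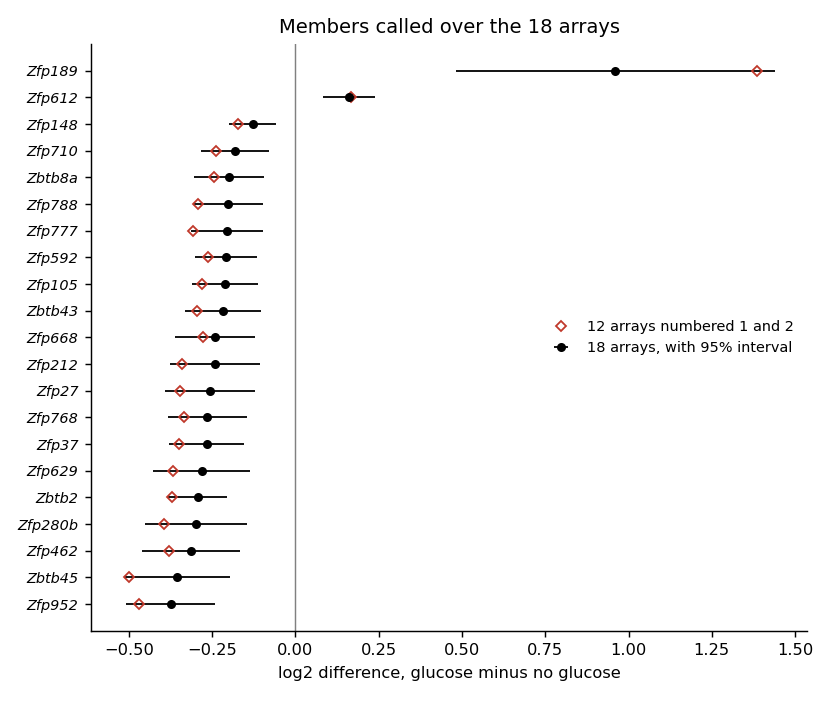
Log2 difference, stimulated minus unstimulated, of the 21 members called over the 18 arrays (black points, with 95% intervals) and the same difference over the 12 arrays numbered 1 and 2 (red diamonds). The 19 lower members lie left of 0, between -0.38 for Zfp952 and -0.13 for Zfp148, and Zfp189 lies far to the right at 0.96 and 1.39.

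Zfp189 and Zfp612 rose. Zfp189 is a KRAB zinc finger gene studied in the mouse prefrontal cortex for its part in resilience to stress. In cells without vitamin D its log2 signal was 9.83, 9.79 and 8.51 with glucose against 8.48, 8.56 and 8.33 without. After calcitriol it was 9.97, 9.63 and 9.42 with glucose and 8.62, 8.38 and 9.16 without. After calcidiol it was 10.04, 9.70 and 8.24 with glucose and 8.48, 8.12 and 8.36 without. The 12 arrays numbered 1 and 2 did not overlap, with stimulated arrays at 9.63 or above and unstimulated ones at 8.62 or below. Zfp189 was low on array 3 of glucose alone and of calcidiol with glucose and high on array 3 of calcitriol, as Txnip was. The log2 difference was 0.96 (SE 0.23, adjusted p = 0.0377) over 18 arrays and 1.39 (SE 0.090, adjusted p = 6e-06) over 12.

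Zfp612 was between 8.11 and 8.36 (median 8.22) on stimulated arrays and between 8.003 and 8.20 (median 8.09) on unstimulated ones. It rose by 0.16 (SE 0.037, adjusted p = 0.0357) and was higher in the stimulated array of all 9 pairs. Zbtb1, which is needed for lymphoid development in the mouse, missed the threshold at 0.42 (SE 0.11, adjusted p = 0.0532). Its log2 signal was 7.27, 7.28 and 6.66 in stimulated cells without vitamin D, against 6.72, 6.73 and 6.84 in unstimulated cells. After calcitriol it was 7.62, 7.05 and 6.97 with glucose and 6.63, 6.66 and 7.01 without, and after calcidiol 7.37, 7.29 and 6.74 with and 6.77, 6.45 and 6.64 without. Stimulated array 3 lay below unstimulated array 3 without vitamin D and after calcitriol. With the block it passed (adjusted p = 0.0263), and over the 12 arrays the difference was 0.65 (SE 0.090, adjusted p = 0.00123).

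Besides Zfp189 and Zbtb1, 5 members rose over the 12 arrays. Zfp574 gave 0.34 (adjusted p = 0.00164), and Zfp395, hypoxia-inducible in human cells, gave 0.30 (adjusted p = 0.0483). Zbtb7b, the factor that sets the CD4 T-cell lineage, gave 0.28 (adjusted p = 0.0106), and Zbtb25 gave 0.26 (adjusted p = 0.0218). Zfp612 gave 0.17 (adjusted p = 0.0392). Among the lower members over the 12 arrays Zbtb45 came first at -0.50 and Zfp952 next at -0.47, followed by Zbtb11 at -0.40 (adjusted p = 0.00133), Zfp280b at -0.40, Zfp445 at -0.40 (adjusted p = 0.0432) and Zfp462 at -0.38.

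**Figure D4:**
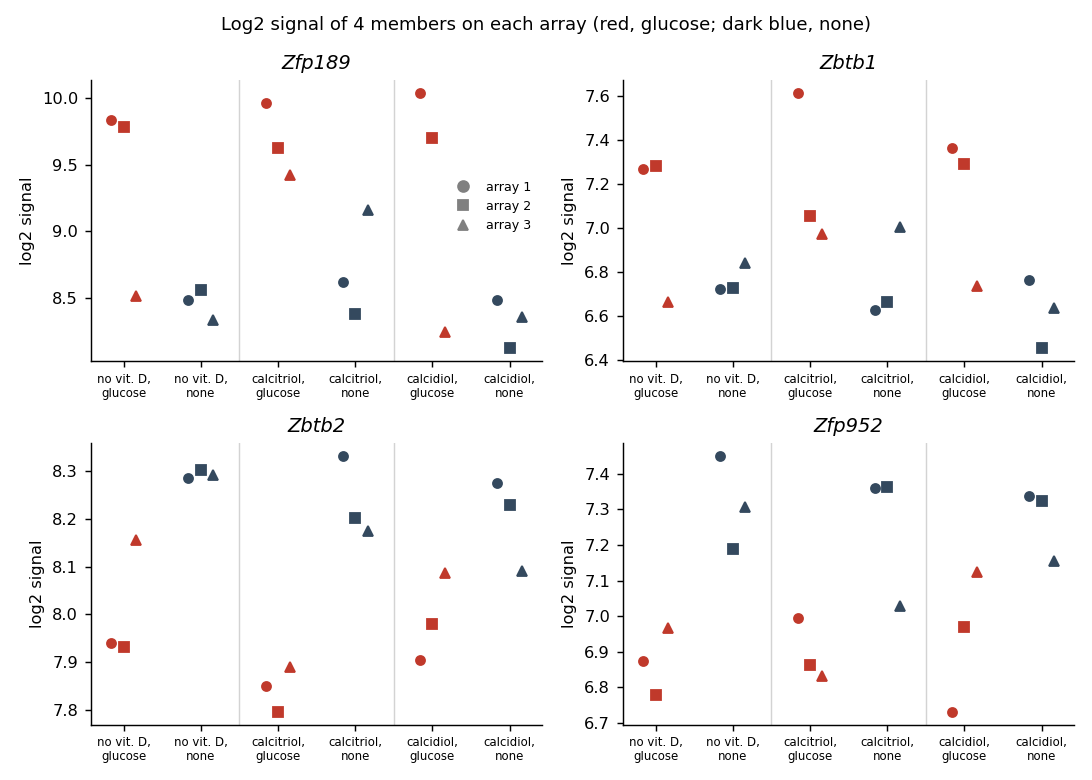
Log2 signal of Zfp189, Zbtb1, Zbtb2 and Zfp952 on each of the 18 arrays, by pretreatment, with stimulated cells (red) left of unstimulated cells (dark blue) and the marker giving the array number; each axis covers its own gene's range and does not start at 0. On arrays 1 and 2 the states separate for all 4 genes, and the triangles (array 3) of glucose alone, calcitriol and calcidiol with glucose sit towards the opposite state for Zfp189.

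No member's 9 stimulated arrays were clear of its 9 unstimulated arrays, and 0.0812% of all genes had groups that did not overlap. Over the 12 arrays 36 members were lower without overlap (18.2%, against 5.13% of all genes) and 4 were higher (2.02%, against 3.06%).

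Of 28 members listed for a known role 25 were tested, and 2 of these were called (Zbtb2 and Zfp148), which is 8.0%, near the 10.6% of all members. Over the 12 arrays 8 of the 25 were called (32.0%, against 26.8% of all members). Zbtb33, the methyl-CpG binding protein Kaiso, gave -0.19 (adjusted p = 0.164), and -0.28 (adjusted p = 0.00344) over the 12 arrays. Zfp143, an activator at many promoters, gave -0.17 (adjusted p = 0.103, and 0.0317 with the block). Zbtb7a, also called LRF, gave -0.13, Zbtb17, the Myc partner Miz-1, -0.08, and Zbtb20 -0.14, with adjusted p of 0.309, 0.386 and 0.365. Zfp622, which acts in maturation of the large ribosomal subunit, gave -0.10 (adjusted p = 0.227), and Zfp598, which senses stalled ribosomes, gave -0.08 (adjusted p = 0.459). The methyl-CpG binding Zbtb4 and Zbtb38 gave -0.05 and -0.04, and Zfp91 and Zfp207 gave 0.02 and 0.01, with 95% intervals that reached no lower than -0.13 (Zbtb4) and no higher than 0.09 (Zfp91). The telomere protein gene Zbtb48, Zbtb24 and Zfp423, a partner of Ebf factors, lay below the filter.

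Of the 64 members below the filter, 42 had a negative difference (65.6%) and 22 a positive one, with a median of -0.05. Among all 3284 genes below the filter 37.3% were negative and the median was 0.03. When no filter was applied 3 of the 64 were called, and Zfp951 had the smallest adjusted p (0.0283). That fit called 21 of the 262 members (8.02%) and 2.54% of all genes. Of the 18 members with several probe sets, 14 had the same sign in all of them and 4 (Zbtb8a, Zfp111, Zfp275 and Zfp74) did not.

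Within single pretreatments the glucose effect gave no member at an adjusted p of 0.05, and 0.0% of all genes passed. At an unadjusted p of 0.05, 27 members passed without vitamin D, 37 after calcitriol and 24 after calcidiol, which are 13.6%, 18.7% and 12.1% of the members against 6.08%, 9.87% and 4.66% of all genes. The differences were negative in 152, 161 and 151 members (76.8%, 81.3% and 76.3%), against 62.1%, 64.7% and 62.3% of all genes. The difference was negative after all 3 pretreatments in 123 members, positive in 17 and mixed in 58. Zbtb2 had the smallest p after calcitriol, at -0.39 (SE 0.073, adjusted p = 0.377). Without vitamin D it gave -0.28 (SE 0.073), and after calcidiol -0.21 (SE 0.073). Zfp952 had the smallest p without vitamin D, at -0.44 (SE 0.11, adjusted p = 0.568), and Zfp668 after calcidiol, at -0.31 (SE 0.098, adjusted p = 0.962). Zfp189 gave 0.92, 0.95 and 1.01 (SE 0.39 each) without vitamin D, after calcitriol and after calcidiol.

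The 12 arrays gave 1 call without vitamin D, 7 after calcitriol and 2 after calcidiol, where 1.06%, 1.89% and 1.35% of all genes were called. Zfp189 rose after each pretreatment, by 1.29, 1.30 and 1.57 (SE 0.16 each, adjusted p = 0.00222, 0.0014 and 0.00049). After calcitriol Zfp574 rose by 0.56 (adjusted p = 0.00656), and Zbtb2, Zfp768, Zfp462, Zfp37 and Zfp788 fell, by 0.44, 0.47, 0.43, 0.39 and 0.34. After calcidiol Zbtb3 fell by 0.66 (SE 0.13, adjusted p = 0.0314). With the block the 12 arrays gave 5, 26 and 7 calls, where 1.78%, 4.54% and 2.45% of all genes were called. These fits rest on 2 arrays per group.

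Vitamin D left the zinc finger genes without a call in any of its 9 comparisons, over 18 or 12 arrays and with or without the block. Over the 18 arrays without the block, 0.0% of all genes were called in these comparisons. Shares of all genes were not set beside the other fits, so those fits do not place the members relative to all genes. At an unadjusted p of 0.05, calcitriol gave 0 members without glucose, 1 with glucose and 1 averaged, where 0.782%, 0.386% and 0.609% of all genes passed. Calcidiol gave 1, 4 and 6 in the same order, where 2.42%, 2.63% and 6.7% of all genes passed. Zbtb2 had the smallest p for calcitriol with glucose, at -0.16 (SE 0.073, 95% interval -0.32 to -0.01, adjusted p = 1.00). Zfp978 had it without glucose, at -0.13 (95% interval -0.27 to 0.01). For calcidiol averaged over glucose states, Zfp37 gave -0.18 (SE 0.065, 95% interval -0.31 to -0.04, adjusted p = 0.722), followed by Zfp18 at -0.15, Zbtb34 at -0.15 and Zfp978 at -0.12. Zfp238 led with glucose, at -0.19 (95% interval -0.36 to -0.02).

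Calcitriol and calcidiol were compared directly at the same dose and time, averaged over glucose states. Zfp641 showed the largest difference relative to its error, at -0.16 (SE 0.055, 95% interval -0.28 to -0.05, adjusted p = 0.997). Its log2 signal was 6.70, 6.58 and 6.78 after calcitriol with glucose and 6.89, 6.89 and 6.85 after calcitriol without, against 6.77, 6.89 and 6.92 after calcidiol with glucose and 7.01, 7.14 and 6.94 after calcidiol without. Zbtb34 gave 0.14 (95% interval 0.01 to 0.26). For Zfp189 the interval ran from -0.21 to 0.96. The interaction of calcitriol with glucose had its smallest p at Zfp579 (0.25, SE 0.11, adjusted p = 1.00) and that of calcidiol at Zfp689 (-0.18, SE 0.12, adjusted p = 1.00). At an unadjusted p of 0.05 the direct comparison gave 2 members and the interactions 2 and 0, where 2.95%, 0.67% and 0.325% of all genes passed.

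**Figure D5:**
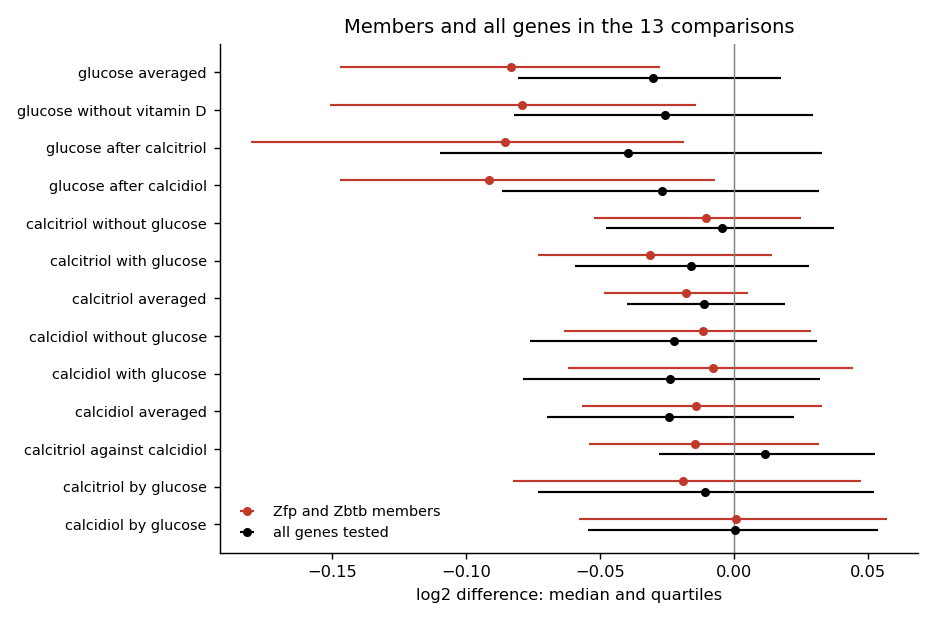
Median (points) and quartiles (lines) of the log2 difference of the 198 members (red) and all 9852 genes tested (black) in the 13 comparisons over 18 arrays, each signed as the first-named condition minus the second. In the 4 glucose comparisons the members' median lies between -0.092 and -0.079, left of that of all genes, and in the 9 vitamin D comparisons it lies between -0.031 and 0.001.

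The tilt was similar over the range of signal. With all genes split into 4 equal bins by mean signal, the 78 members of the lowest bin (log2 6.38 to 7.50) had a median glucose difference of -0.085, against -0.041 for all genes there. In the bins above it the members' medians were -0.081, -0.083 and -0.096, over 74, 37 and 9 members, against -0.042, -0.034 and -0.012. Many zinc finger genes lie in clusters that arose by duplication. In the order of protein-coding genes of the rat RefSeq annotation, 69 members stood next to another member, and the longest run was of 5 on chromosome 4 (Zfp786, Zfp398, Zfp282, Zfp212 and Zfp956). The 53 tested members with such a neighbour had a median of -0.083 and 5 calls, and the 136 without one had -0.087 and 15 calls.

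Promoter windows from RefSeq (GRCr8, 250 bases before to 50 after the annotated start) were matched to 206 members, 157 of them tested. Their median GC content was 59.0%, against 62.0% for the 7197 genes tested that had a window. A GC box (GGGCGG on either strand) was found in 51.0% of the tested members' windows and 66.5% of those of all genes tested. A CCAAT box (CCAAT on either strand) was found in 38.2% and 37.9%, and a TATA box (TATAAA on either strand) in 9.55% and 5.7%. A cyclic AMP response element (TGACGTCA) was found in 1.91% and 3.47%. Among the 15 lower members with a window, 7 held a GC box and 6 a CCAAT box. A match is a description of letters, not a binding site.

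The windows of 4 lower members are shown to let their letters be compared, with CCAAT, GC and TATA box matches in capitals. Zbtb2 and Zfp37 had the smallest adjusted p among members with a window, and Zbtb45 and Zfp280b were picked after their values were seen. The window of Zfp592, next in order of p, is not printed. It held a TATA box match beginning 222 bases before the start and a CCAAT box match, in reverse, beginning 12 bases after it. The annotated start of Zfp37 is itself an ATG with an open frame, and that of Zbtb2 precedes one by 16 bases, so these 2 windows may begin within the transcribed gene rather than at a promoter. An ATG with a frame open to the end of the window lay after the start in 32.5% of the tested members' windows and 33.5% of those of all genes tested. Zbtb45 and Zfp280b had none. All 4 are on the minus strand and are printed 5′ to 3′ in the direction of the gene, and Zfp952 and Zfp189 are named only.
Zbtb2, chr1:43240271-43240570: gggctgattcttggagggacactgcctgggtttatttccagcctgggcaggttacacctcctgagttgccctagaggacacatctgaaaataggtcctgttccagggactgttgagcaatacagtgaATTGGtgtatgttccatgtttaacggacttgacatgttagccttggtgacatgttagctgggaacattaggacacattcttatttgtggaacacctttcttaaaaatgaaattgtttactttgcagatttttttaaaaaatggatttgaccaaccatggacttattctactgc
Zfp37, chr5:80654156-80654455: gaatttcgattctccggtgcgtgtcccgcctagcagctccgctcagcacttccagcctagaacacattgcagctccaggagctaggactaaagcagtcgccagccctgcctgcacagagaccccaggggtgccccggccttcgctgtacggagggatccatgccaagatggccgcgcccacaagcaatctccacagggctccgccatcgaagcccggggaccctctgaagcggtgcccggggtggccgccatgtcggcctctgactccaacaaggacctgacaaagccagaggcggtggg
Zbtb45, chr1:82711712-82712011: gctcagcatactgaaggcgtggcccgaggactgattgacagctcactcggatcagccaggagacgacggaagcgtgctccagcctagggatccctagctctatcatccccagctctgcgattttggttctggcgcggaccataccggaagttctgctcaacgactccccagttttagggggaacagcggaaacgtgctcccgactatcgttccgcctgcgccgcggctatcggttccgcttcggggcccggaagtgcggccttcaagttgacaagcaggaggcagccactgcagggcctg
Zfp280b, chr20:12641334-12641633: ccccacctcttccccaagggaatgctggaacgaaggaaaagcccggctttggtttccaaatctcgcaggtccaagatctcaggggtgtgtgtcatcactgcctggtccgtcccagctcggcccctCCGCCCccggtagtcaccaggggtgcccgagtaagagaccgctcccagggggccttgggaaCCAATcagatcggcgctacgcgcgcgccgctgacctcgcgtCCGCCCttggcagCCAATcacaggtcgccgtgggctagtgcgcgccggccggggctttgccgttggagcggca
The window of Zfp280b held 2 GC boxes and 2 CCAAT boxes, beginning 125 and 23, and 64 and 10 bases before the start. The window of Zbtb2 held 1 CCAAT box, in reverse, 123 bases before the start, and those of Zfp37 and Zbtb45 held none of the 3 boxes.

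The partners of these proteins were read against the 3.37% of all genes called over the 18 arrays and 9.94% over the 12. Among 18 genes of the KRAB silencing machinery, all tested, 1 was called, lower after glucose (Smarcad1, a chromatin remodeller, at -0.20, adjusted p = 0.0449). The difference was negative in 17 of the 18, where it was negative in 67.0% of all genes, and their median was -0.068. Over the 12 arrays 2 were called, Smarcad1 and Atf7ip, a partner of Setdb1 (-0.24, adjusted p = 0.0135), both lower. Trim28 gave -0.05 (95% interval -0.11 to 0.01) and Setdb1 -0.06. Of 13 tested corepressor genes that work with BTB proteins, 1 was called, the histone deacetylase gene Hdac5, which was higher at 0.20 (adjusted p = 0.0129), and it was the only one over the 12 arrays too. Ncor1 and Bcor gave -0.06 and -0.08 and did not pass. The difference was negative in 10 of these 13 genes, with a median of -0.061. Of 36 tested zinc finger genes with other names, 5 were called over the 18 arrays, all lower. These were Zscan22 (-0.32, adjusted p = 0.0161), the neuroendocrine factor Insm1 (-0.30, adjusted p = 0.0328), Zscan21, Zhx3 and Hivep2. The median of the 36 was -0.094, and 30 of them were negative. Over the 12 arrays 10 were called, 9 lower and 1 higher (Zfhx2 at 0.43, adjusted p = 0.0028). Of 12 tested beta-cell markers 1 was called, Neurod1 at -0.16 (adjusted p = 0.0392), and Neurod1 and Nkx6-1 were both lower over the 12 arrays (-0.23 and -0.30, adjusted p = 0.0067 and 0.0127). Their part in the zinc finger result was not tested.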

How the data were processed

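Total RNA (150 ng per sample) was hybridised to rat gene arrays, 1 sample per array. The values are the log2 signals that the authors deposited. RMA and Partek appear in the submitters' processing notes, and their settings are not stated there. The attached table held 17017 probe sets with 13136 symbols. Of the members' symbols 240 are current in RefSeq, 9 are older and 13 were not matched.

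One limma model of all 6 groups (limma 3.58.1, R 4.3.3, lmFit and eBayes) gave the 13 comparisons over 9852 genes, with Benjamini-Hochberg adjustment over all of them and 0.05 as threshold. The named members were those called, else those with the smallest p, those with a known role and the extremes of signal. Members, lists and comparisons were chosen with earlier results of these data known. Same-numbered arrays deviated together in each glucose comparison (lowest correlation 0.179), which is read from the data since no label states a pairing, so fits with a block are given. In calcidiol against control without glucose the lowest was 0.0533. Median log2 signals per array were 7.52 to 7.63. The lowest were on stimulated arrays, array 2 of calcitriol with glucose (7.52) and array 1 of calcidiol with glucose (7.53). The highest were on control arrays 1 (7.63) and 3 (7.61). The next lowest was unstimulated, array 2 of calcidiol (7.55). After median centring the averaged glucose difference was negative in 74.2% of members and 49.6% of all genes. Precision is limited by having 3 arrays per group. The fit was also run on simulated arrays with independent noise. These lacked the shared deviations of same-numbered arrays, so they do not show how calls behave in the present data. Summaries were made in Python 3.11.15 with numpy 2.4.6 and pandas 2.3.3, and plots with matplotlib 3.10.9.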

Additional observations from a re-analysis of the deposited data

Results flagged for a closer look

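In the glucose effect, 5 members moved one way in all 3 same-numbered pairs of one pretreatment and the other way in all 3 pairs of another. The share of all genes that did so was not counted, so the 5 are no measure of how unusual the members are. In each pretreatment the pair numbered 3 held an array that went against its label for Txnip.

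Zbtb37, below the filter on low signal, gave log2 differences of 0.10 after calcitriol and -0.22 after calcidiol. Zfp335 gave 0.16 after calcitriol and -0.10 after calcidiol. Zfp513 gave 0.13 after calcitriol, against -0.19 after calcidiol and -0.09 without vitamin D. Zfp579 gave 0.10 after calcitriol and -0.15 without vitamin D. The difference between the glucose effects after calcitriol and after calcidiol was not tested. Zbtb41 gave -0.20 after calcitriol and 0.03 without vitamin D. Its stimulated arrays without vitamin D were at 8.45, 8.47 and 8.47 against 8.44, 8.43 and 8.43 on unstimulated arrays, a gap of a few hundredths of a log2 unit. The difference between the effects after calcitriol and without vitamin D is the interaction of calcitriol with glucose. It was 0.25 for Zfp579, 0.22 for Zfp513 and -0.22 for Zbtb41, each with an adjusted p of 1.00 by limma.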

How the results depend on the processing

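The number of members called in the glucose effect averaged over pretreatments was 21 of 198 (10.6%). With the lowest 50% of genes left out it was 9 of the 87 members still tested (10.3%, against 3.06% of all genes). With no moderation it was 1, where 0.0203% of all genes were called. It was 56 with array weights (11.9% of all genes called), 47 with the block, 53 over the 12 arrays and 73 over the 12 with the block. Dropping all 6 arrays numbered 1, or all 6 numbered 2, left 0 by limma, with 33 and 34 members at an unadjusted p of 0.05. Shares of all genes were not set beside these counts, so the counts do not place the members relative to all genes. Leaving out single arrays gave 2 to 40. Within pretreatments the main fit of 18 arrays called 0 members, as did those with the block, quantile normalization or median centring. Array weights, also over the 18 arrays, called 44 without vitamin D, 20 after calcitriol and 0 after calcidiol. In these 10.7%, 3.79% and 0.0% of all genes were called. In the same order the 12 arrays called 1, 7 and 2, and the 12 with the block 5, 26 and 7. Over the 18 arrays the block changed the count only in the average over pretreatments. The members' median minus that of all genes was -0.053. It was -0.073 over the 12 arrays with or without the block, -0.043 and -0.042 without the arrays numbered 1 and 2, and -0.064 to -0.047 when single arrays were left out. No member named for the averaged glucose effect by its call changed direction under these settings. Some values that did not pass changed sign over the 12 arrays, such as Zfp521 in the glucose effect (-0.05, and 0.02) and Zfp189 and Zbtb1 in the calcitriol effect averaged over glucose states (0.28 and 0.07, and -0.02 and -0.01). For single named genes, 480 values under other settings kept their side of the threshold, 39 passed it newly and 233 no longer passed. The deposited signals carry no background measure, so the 64 members below the filter rest on a rank of signal alone.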
